A study of Mus musculus with 4 samples.

Results

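The 6 genes described here encode cyclin-dependent kinase inhibitors, proteins that hold back the kinases driving cells through the division cycle. They were taken by symbol from the combined expression table and were Cdkn1a, Cdkn1b, Cdkn1c, Cdkn2a, Cdkn2b and Cdkn2c. All 6 were found among the 20284 genes of the table. Their levels were followed across cell classes and between embryoid bodies that came from DUX-pulsed and from control mouse embryonic stem cells, with Mki67, a gene expressed in cycling cells, as a guide to proliferation. Embryoid bodies are aggregates in which embryonic stem cells differentiate into many cell types, and DUX is a transcription factor of the early cleavage embryo. The DUX-pulsed group held 2 libraries of embryoid bodies at day 9 from stem cells given a pulse of DUX expression. The control group held 2 libraries of embryoid bodies at day 9 from control stem cells. The series design calls the libraries of a group biological replicates. The stem cell line, the construct, and the dose and length of the pulse are not given in the sources used here, and neither is what the control cells carried or received.

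The inhibitors form the INK4 and the CIP/KIP families. The INK4 proteins p16 (from Cdkn2a), p15 (Cdkn2b) and p18 (Cdkn2c) bind the kinases CDK4 and CDK6 and keep the retinoblastoma protein active, while Cdkn2a also encodes p19ARF, which stabilises p53 by binding MDM2. The CIP/KIP proteins p21 (Cdkn1a), p27 (Cdkn1b) and p57 (Cdkn1c) bind a broader range of cyclin and kinase complexes: p21 is a classical target of p53, p27 rises as cells leave the cycle and is largely controlled by protein breakdown, and p57 is encoded by an imprinted gene that is active in placenta and in many differentiating tissues of the embryo.

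Cdkn2a and Cdkn2b are neighbours on the minus strand of chromosome 4, at chr4:89274471-89294653 and chr4:89306299-89311039 in the GRCm38 build (GENCODE vM21). Cdkn2c lies far from them on the same strand and chromosome at chr4:109660876-109667189. Cdkn1a is at chr17:29090976-29100727 and Cdkn1b at chr6:134920401-134925513, both on the plus strand, and Cdkn1c is at chr7:143458339-143461050 on the minus strand. Genes on the opposite strand overlap Cdkn1c (Gm44732) and Cdkn1a (AC167363.2); neither has a row in the table, and whether counting used the strand is not given in the sources used here. The 3 promoter sequences of the Cdkn2a and Cdkn2b locus are shown because these 2 genes moved together across classes, although each has a start of its own. They are the 250 bases before each RefSeq start (GRCm38.p6), read 5′ to 3′ on the minus strand, with the word GGGCGG, or its reverse complement CCGCCC, in capitals. The outer start of Cdkn2a (chr4:89294620-89294869) is of the p19ARF type, and the inner start (chr4:89282193-89282442) is of the p16 type. The Cdkn2b window is chr4:89311033-89311282.
Cdkn2a outer start: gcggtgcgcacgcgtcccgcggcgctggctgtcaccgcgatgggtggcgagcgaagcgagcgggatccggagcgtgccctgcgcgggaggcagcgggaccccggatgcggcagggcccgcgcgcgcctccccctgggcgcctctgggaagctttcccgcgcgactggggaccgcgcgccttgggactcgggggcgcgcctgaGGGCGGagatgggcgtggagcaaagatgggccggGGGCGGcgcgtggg
Cdkn2a inner start: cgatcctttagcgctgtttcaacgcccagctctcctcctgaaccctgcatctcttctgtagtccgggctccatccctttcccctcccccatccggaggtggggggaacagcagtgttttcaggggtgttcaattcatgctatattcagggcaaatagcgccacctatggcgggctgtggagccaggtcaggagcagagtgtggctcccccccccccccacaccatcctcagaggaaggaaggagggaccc
Cdkn2b: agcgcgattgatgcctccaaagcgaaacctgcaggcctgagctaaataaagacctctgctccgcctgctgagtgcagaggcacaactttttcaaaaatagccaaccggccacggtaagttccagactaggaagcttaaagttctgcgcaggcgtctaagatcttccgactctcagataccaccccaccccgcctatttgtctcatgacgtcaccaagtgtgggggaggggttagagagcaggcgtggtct
The outer window held the word 2 times, with 40 CpG pairs and 78.4% G and C. The inner window held it 0 times, with 7 CpG pairs and 60.0% G and C. The Cdkn2b window also held it 0 times, with 12 CpG pairs and 53.6% G and C. Among 32851 mouse promoters of the same length, 32.7% held the word at least 1 time and 16.7% at least 2 times, and the median was 6 CpG pairs. The matches describe letters in these windows only. The table gives 1 count per gene symbol, so the Cdkn2a counts do not separate transcripts of the p16 type from those of the p19ARF type.

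The table held 10090 cells. After cells with more than 10% mitochondrial counts were left out, 2063 and 1353 cells remained in the DUX-pulsed libraries and 2824 and 2636 in the control libraries. These held 65062824 and 36462169 unique molecular identifiers (UMIs, each marking 1 captured RNA molecule) in the DUX-pulsed libraries, and 96344329 and 78167098 in the control libraries. The median UMIs per cell were 27621 and 27260 in DUX-pulsed and 30402.5 and 28320.5 in control libraries, and 7 of 8869 distinct barcodes occurred in more than 1 library. Cells were clustered without the 6 members, Mki67 and lists of S, G2 and M phase genes. A cluster was given a cell type name, with "-like", only where markers fixed for that type led it and outnumbered those of any other type among its top 10 genes, and otherwise kept its number. Many classes came almost wholly from 1 group: cluster 14 held 7 and 14 cells of the DUX-pulsed libraries against 508 and 481 of the control libraries, and the cardiomyocyte-like class 398 and 273 against 35 and 10. The DUX-pulsed libraries also differed from each other, with 15.3% and 3.55% of their cells in the parietal endoderm-like class. Cluster 5, with a median of 1072 UMIs per cell, is left out of the description of classes. It was kept in the comparison of genes over clusters, in the tests within classes and in the averages over tested classes.

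Over the whole culture, 5 of the 6 inhibitors had higher RNA levels in DUX-pulsed than in control embryoid bodies: Cdkn2a, Cdkn2b, Cdkn2c, Cdkn1b and Cdkn1c. Cdkn1a did not pass the test. Levels are given as CPM, the summed UMIs of a gene scaled to the library's TMM-adjusted total, and the test was edgeR's quasi-likelihood test with Benjamini-Hochberg adjustment over all 16140 genes tested, at 0.05. In that comparison 26.7% of all tested genes were called, 15.6% as higher and 11.1% as lower in the DUX-pulsed libraries. The median log2 fold change of all genes was -0.0021. In such sums more RNA per cell and more cells of a type that holds the RNA cannot be told apart.

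Of the INK4 genes, Cdkn2a stood at 73.7 and 57.1 CPM in the DUX-pulsed libraries, against 25.1 and 17.7 CPM in the control libraries. The groups did not overlap, as for 67.6% of all tested genes, and the log2 fold change was 1.61 (SE 0.23, adjusted p = 0.0060 by edgeR). Cdkn2b stood at 16.6 and 20.9 CPM against 5.40 and 5.46 CPM, again without overlap (log2 fold change 1.79, SE 0.19, adjusted p = 0.00314 by edgeR). Cdkn2c was close to the limit of detection. It had 157 and 61 UMIs, or 2.51 and 1.68 CPM, in the DUX-pulsed libraries, and 59 and 35 UMIs, or 0.619 and 0.425 CPM, in the control libraries. Its log2 fold change was 2.0 (SE 0.37, adjusted p = 0.0128 by edgeR). This call was lost without control replicate 2 (adjusted p = 0.0579) and when a stricter filter kept cells of 1000 or more genes and no more than 5% mitochondrial reads (adjusted p = 0.126). Cdkn2d, the remaining INK4 gene (p19INK4d), stood at 56.7 and 52.2 CPM against 36.8 and 32.1 CPM (log2 fold change 0.66, SE 0.15, adjusted p = 0.0234 by edgeR), and its call was lost without control replicate 1 (0.0742) or 2 (0.208). The 23 tested genes within 5 Mb of Cdkn2a and Cdkn2b had a median log2 fold change of 0.35, and the 974 tested genes of chromosome 4 a median of 0.23. Around the other members the medians were -0.09 for Cdkn1a, 0.04 for Cdkn1b, -0.07 for Cdkn1c and -0.25 for Cdkn2c. The part of the chromosome 4 shift in the Cdkn2a and Cdkn2b values was not tested.

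Of the CIP/KIP genes, Cdkn1c had the largest fold change of the 6 members. It stood at 32.7 and 18.8 CPM in the DUX-pulsed libraries, against 3.71 and 1.77 CPM in the control libraries (log2 fold change 3.23, SE 0.44, adjusted p = 0.00526 by edgeR). Both DUX-pulsed libraries were far above both controls, but they also lay apart from each other. Cdkn1b stood at 44.4 and 53.2 CPM against 23.7 and 27.4 CPM, without overlap (log2 fold change 0.93, SE 0.16, adjusted p = 0.0111 by edgeR). The Cdkn1b call was lost without control replicate 1 (adjusted p = 0.0606). Cdkn1a stood at 221 and 149 CPM against 161 and 155 CPM. Its groups overlapped (log2 fold change 0.23, SE 0.21, adjusted p = 0.473 by edgeR), and the sign turned to -0.070 without DUX-pulsed replicate 1. Mki67 stood at 173 and 134 CPM against 120 and 119 CPM and was not called (log2 fold change 0.36, SE 0.17, adjusted p = 0.178 by edgeR).

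**Figure D1:**
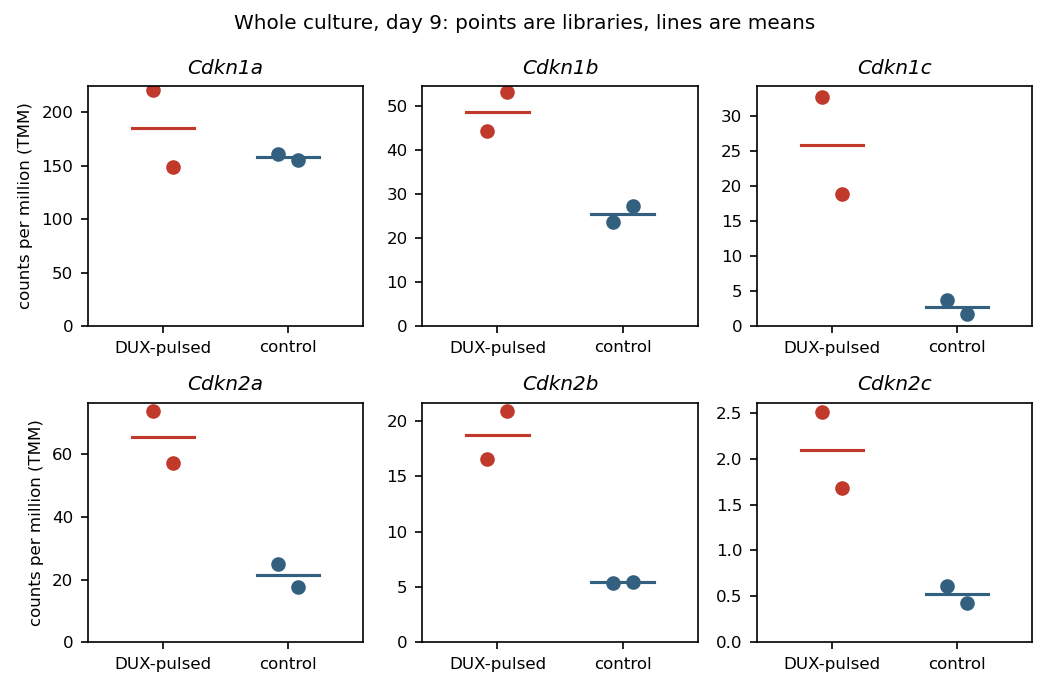
Level of each inhibitor in the whole culture, in CPM with TMM scaling on a linear axis from 0, with 1 point per library and a line at each group's mean; DUX-pulsed libraries stand left of control libraries. The groups lie apart for Cdkn1b, Cdkn1c, Cdkn2a, Cdkn2b and Cdkn2c and overlap for Cdkn1a.

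The partners and regulators of these inhibitors were read from pathway lists. Of 12 tested cyclins and kinases of the cycle, 4 were called higher and 0 lower, with a median log2 fold change of 0.37. Ccnd1, the cyclin D1 that the INK4 proteins act against through CDK4 and CDK6, stood at 41.9 and 29.6 CPM in the DUX-pulsed libraries, against 9.10 and 9.41 CPM in the control libraries (log2 fold change 1.95, adjusted p = 0.00293 by edgeR). Ccnd2 (cyclin D2) stood at 280 and 274 CPM against 113 and 115 CPM (log2 fold change 1.28, adjusted p = 0.00339 by edgeR). D-type cyclins and their inhibitors were thus both higher in the DUX-pulsed libraries. Of 13 retinoblastoma and E2F genes, 4 were called higher and 0 lower, with a median of 0.14. E2f2, an activating E2F factor, had a log2 fold change of 1.70 (adjusted p = 0.00685) and Rb1, the retinoblastoma gene itself, 1.22 (adjusted p = 0.00904, both by edgeR). The Rb1 call was lost without control replicate 2 (adjusted p = 0.0575).

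Of 18 tested p53 targets other than Cdkn1a, 4 were called higher and 1 lower, with a median log2 fold change of 0.07. Plk2, a stress-responsive polo-like kinase, stood at 83.6 and 94.3 CPM in the DUX-pulsed libraries, against 31.8 and 37.3 CPM in the control libraries (log2 fold change 1.36, adjusted p = 0.00383 by edgeR). Btg2, an antiproliferative p53 target, stood at 120 and 127 CPM against 54.3 and 72.1 CPM (log2 fold change 0.97, adjusted p = 0.0133 by edgeR). Most of the p53 list, like Cdkn1a, was not called. Of 8 genes of p27 turnover and FOXO control, 0 were called, with a median of -0.19, and the smallest adjusted p was 0.0521 for Foxo4 (log2 fold change -0.58, edgeR). Of 15 genes on a Polycomb list, 1 was called higher and 0 lower, with a median of -0.16. Most of their products act in silencing the Cdkn2a locus in many cell types, but the list also holds a demethylase that acts against this silencing. Bmi1, known from mice as a repressor of Cdkn2a, had a log2 fold change of -0.46 (adjusted p = 0.104 by edgeR). Without control replicate 1 the call of Btg2 was lost (adjusted p = 0.0704), and without DUX-pulsed replicate 2 Foxo4 was called (0.0176).

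Of 13 TGF-beta response genes, a pathway that is known to induce Cdkn2b, 5 were called higher and 0 lower, with a median log2 fold change of 0.01. Tgfbi, a matrix protein induced by TGF-beta, stood at 45.5 and 82.5 CPM in the DUX-pulsed libraries, against 6.65 and 5.42 CPM in the control libraries (log2 fold change 3.40, adjusted p = 0.00259 by edgeR). Ltbp2, a latent TGF-beta binding protein, had a log2 fold change of 3.93 (adjusted p = 0.00325 by edgeR). Of 8 tested imprinted neighbours of Cdkn1c, 2 were called higher and 0 lower, with a median of 0.22. These were Igf2, the fetal growth factor, at 1.47 and 1.82 CPM against 0.0629 and 0.0851 CPM (log2 fold change 4.44, adjusted p = 0.00259 by edgeR), and Ascl2, a trophoblast transcription factor (log2 fold change 1.16, adjusted p = 0.0337 by edgeR). Few genes of the division phases were called: of 20 S phase genes 1 was called higher and 2 lower (median -0.21), and of 20 G2 and M phase genes 0 were called higher and 1 lower (median 0.13). The named S phase genes were Ung, a uracil-DNA glycosylase (log2 fold change -0.80, adjusted p = 0.0113), and Chaf1b, a chromatin assembly subunit (-0.99, adjusted p = 0.0153, both by edgeR). The named G2 and M genes were Aurka, a mitotic kinase (-0.66, adjusted p = 0.0235), and Cdc20, an activator of the anaphase-promoting complex (-0.46, adjusted p = 0.0945, both by edgeR). The calls of Ung (adjusted p = 0.0608), Chaf1b (0.0608) and Aurka (0.117) were lost without control replicate 1, and those of Ung (0.0556), Aurka (0.139) and Ascl2 (0.207) without control replicate 2. Without DUX-pulsed replicate 2 that of Aurka was lost (0.069), and without DUX-pulsed replicate 1 Cdc20 was called (0.0497).

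Each inhibitor had its own map of cell classes. In the following, class levels are plain CPM of the summed UMIs of a class in a library, averaged over the libraries with at least 20 cells of the class, and they are given without a test because classes were built from the same cells. Cdkn2a was highest in cluster 7, a class led by Ghrl, Pyy and Afp. It stood there at 161 and 168 CPM in the DUX-pulsed libraries and at 181 CPM in control replicate 1, while control replicate 2 had 138 CPM from 18 cells. The values of the 2 groups overlapped. The parietal endoderm-like class followed with 115 ± 28.5 CPM (SD, n = 3) and cluster 6, led by Itih2, Ambp, Fgg and Alb, with 74.8 ± 36.4 CPM (SD, n = 4). The next classes, clusters 17 and 16, were at 34.9 and 31.7 CPM. Cluster 2, in which smooth muscle and cardiomyocyte markers were mixed, was lowest, at 0.974 CPM, and the cardiomyocyte-like class had 5.10 CPM. At a depth thinned to 5000 UMIs per cell, 38.6% of cluster 7 cells and 0.971% of cluster 2 cells had a Cdkn2a UMI. Without thinning the shares were 63.9% and 2.88%, at median depths of 28993 and 24879 UMIs.

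Cdkn2b followed much of the same map. It was highest in cluster 7, at 53 and 61.9 CPM in the DUX-pulsed libraries and 108 CPM in control replicate 1, and next in cluster 6, at 36.7 and 62.7 CPM in the DUX-pulsed libraries against 10.7 and 6.98 CPM in the control libraries. Over 18 classes the log2 levels of Cdkn2a and Cdkn2b had a Pearson r of 0.81 and a Spearman rho of 0.83, a description of classes that share libraries and differ in depth. The parietal endoderm-like class departed from this: it was the second class for Cdkn2a, while its Cdkn2b was 8.05 and 3.61 CPM in the DUX-pulsed libraries and 1.40 CPM in control replicate 1. The 2 RNAs were also found together in single cells. In thinned cells of all classes, 15.5% and 23.0% of Cdkn2a-detected cells of the DUX-pulsed libraries had a Cdkn2b UMI, against 2.41% and 2.31% of their Cdkn2a-undetected cells. In the control libraries the shares were 8.70% and 10.7% against 1.87% and 1.89%. Within cluster 7 alone they were 29.1% and 30.1% of detected cells against 7.10% and 5.60% of undetected cells in the DUX-pulsed libraries. Within cluster 6 they were 23.1% and 29.6% against 6.06% and 6.25%. Over the 22 pairs of a class and a library with at least 10 Cdkn2a-detected cells, the share with Cdkn2b was higher in Cdkn2a-detected cells in 18, lower in 3 and equal in 1. The 3 pairs with a lower share were the parietal endoderm-like class of control replicate 1 and the visceral and primitive endoderm-like class of both control libraries, each with no cell holding both RNAs.

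Cluster 7 made up 13.5% and 15% of the cells of the DUX-pulsed libraries, and 0.850% and 0.683% of the control libraries. It held 28.5% and 53% of all Cdkn2a UMIs of the DUX-pulsed libraries, while the control libraries had 7.10% and 5.69% of theirs there. For Cdkn2b it held 41.6% and 53.3% against 19.6% and 6.24%. The parietal endoderm-like class held a further 40.2% and 6.89% of Cdkn2a UMIs in the DUX-pulsed libraries. With cluster 7 left out, Cdkn2a was still called higher over the rest of the culture, at 58.0 and 32.6 CPM in the DUX-pulsed libraries against 23.3 and 17.7 CPM in the control libraries (log2 fold change 1.20, SE 0.32, adjusted p = 0.0389 by edgeR). Cdkn2b was likewise called, at 10.7 and 11.9 CPM against 4.34 and 5.43 CPM (log2 fold change 1.27, SE 0.20, adjusted p = 0.0086 by edgeR).

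Cdkn2c was rare everywhere, with 312 UMIs in 243 cells of the 8876. The myeloid and megakaryocyte-like class was highest, at 9.88 and 11 CPM in the DUX-pulsed libraries and 1.59 CPM in control replicate 1, and the mesenchyme and fibroblast-like class had 3.55 ± 1.92 CPM (SD, n = 4). These levels rest on 34, 13 and 2 UMIs in the myeloid and megakaryocyte-like class, and on 40 and 29 UMIs in the DUX-pulsed and 11 and 1 UMIs in the control libraries in the mesenchyme and fibroblast-like class.

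Cdkn1c was concentrated in 1 small class. Cluster 9, led by the trophoblast-associated genes Rhox9, Rhox6, Gata2 and Tfap2c, held 39 and 16 cells of the DUX-pulsed libraries and 1 and 0 cells of the control libraries. Its Cdkn1c level was 661 and 556 CPM in the DUX-pulsed libraries, from 1358 and 305 UMIs. The next class, cluster 3, had 28.4 ± 14.2 CPM, and cluster 2 and the cardiomyocyte-like and mesenchyme and fibroblast-like classes had 25 ± 20.5, 21.0 ± 15 and 14.9 ± 8.90 CPM (SD, n = 2 to 4 libraries). Cluster 9 was 0.631% of cells and held 51.7% of all Cdkn1c UMIs. In the DUX-pulsed libraries it held 66.2% and 44.5% of them, from 1.89% and 1.18% of the cells. A Cdkn1c UMI was found in 75.0% of cluster 9 cells and in 1.91% of cluster 7 cells, at median depths of 46189.5 and 28993 UMIs, and in 52.2% and 0.777% after thinning. The cell with most Cdkn1c held 533 UMIs, and the 88 cells with most held 78.8% of all Cdkn1c UMIs. With cluster 9 left out, Cdkn1c was still called higher over the rest of the culture, at 11 and 10.6 CPM in the DUX-pulsed libraries against 3.58 and 1.87 CPM in the control libraries (log2 fold change 2.04, SE 0.36, adjusted p = 0.0114 by edgeR). The fold change was smaller without these cells, and the 2 DUX-pulsed libraries came close to each other.

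Cdkn1a was broad, with UMIs in 68.4% of cells. It was highest in the erythroid-like class (353 ± 63.1 CPM, n = 3), cluster 7 (329 ± 44.6, n = 3), the parietal endoderm-like class (289 ± 44.8, n = 3) and cluster 16 (281 ± 28.9, n = 2, all SD). The lowest means were those of the mesenchyme and fibroblast-like class (57.6 ± 53.4 CPM, n = 4), cluster 2 (61.4 ± 11.7, n = 2, both control) and cluster 3 (65.3 ± 28.6, n = 4, all SD). The mesenchyme mean joins 132 and 61.2 CPM in the DUX-pulsed libraries with 15.6 and 21.8 CPM in the control libraries, and in both DUX-pulsed libraries cluster 3, at 46.8 and 55.8 CPM, was below it. In the order of Cdkn1a levels these neighbouring classes overlapped in the values of their libraries, and cluster 16 lay above the next class, cluster 18 at 213 ± 8.83 CPM, without overlap. In the DUX-pulsed libraries 21.1% and 33.5% of Cdkn1a UMIs came from cluster 7, and 32.1% and 4.87% from the parietal endoderm-like class. In the control libraries 20.9% and 20.9% came from cluster 14, 14.9% and 22.6% from cluster 16 and 17.9% and 24.1% from cluster 18.

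The order of classes was different for Cdkn1b. The erythroid-like class was highest for Cdkn1a and for Cdkn1b (84.8 ± 25.6 CPM for Cdkn1b, n = 3), but the next classes for Cdkn1b were the mesenchyme and fibroblast-like class (55.7 ± 19.2, n = 4), cluster 2 (54.1 ± 7.04, n = 2), cluster 3 (54.1 ± 14.8, n = 4) and the cardiomyocyte-like class (48.0 ± 27.4, n = 3, all SD). The lowest were the parietal endoderm-like class at 18.2 ± 6.11 and cluster 7 at 18.9 ± 3.51 CPM (SD, n = 3 each). Over the 18 classes the Pearson r of log2 levels between Cdkn1a and Cdkn1b was -0.29. The highest class was 2.2 times the median class for Cdkn1a and 2.53 times for Cdkn1b, and the ratio was 8.15 for Cdkn2a, 11.6 for Cdkn2b and 358 for Cdkn1c.

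**Figure D2:**
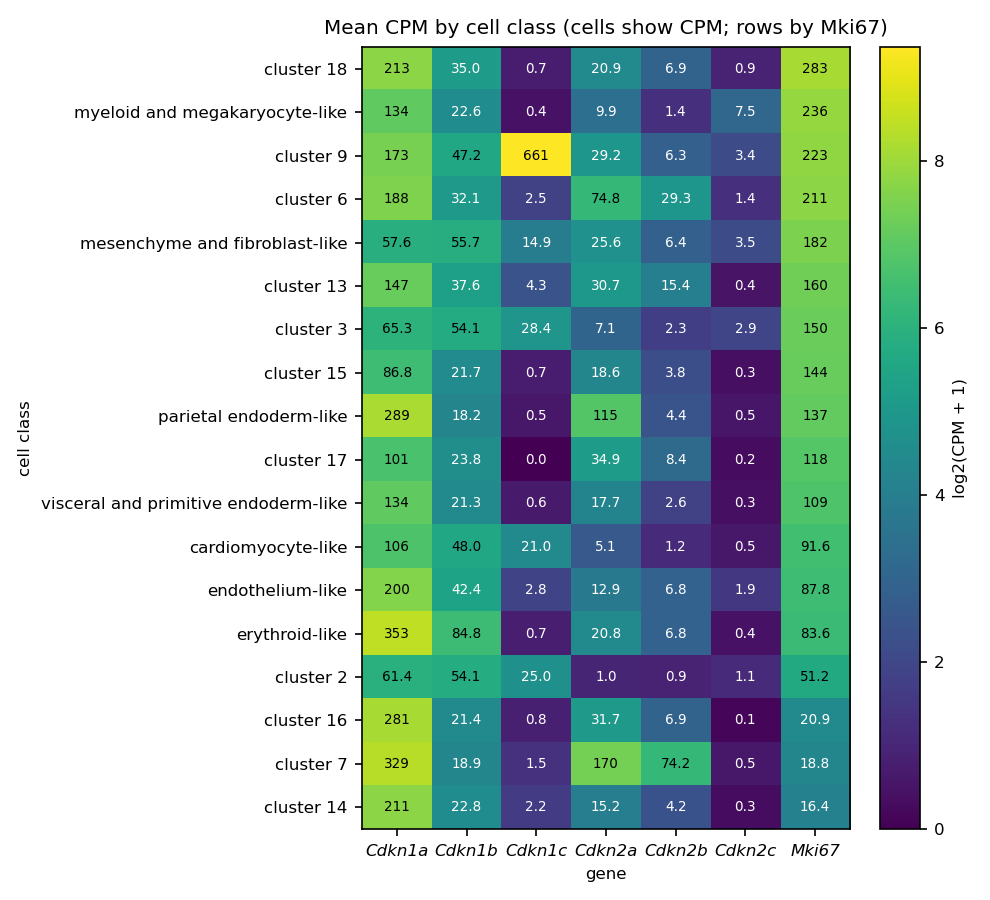
Heat map of the 6 inhibitors and Mki67 (columns) in 18 cell classes (rows, ordered by Mki67), with the mean CPM over libraries of at least 20 cells printed in each field. Cdkn2a and Cdkn2b peak in cluster 7, near the bottom of the Mki67 order, and Cdkn1c peaks in cluster 9.

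The classes with most inhibitor RNA did not hold a single place in the order of Mki67. Mki67 was highest in cluster 18, led by the mitotic genes Kif23, Cenpf and Top2a, at 283 ± 20.5 CPM (SD, n = 2), with 68.4% of its thinned cells detected. Cluster 7 had 18.8 ± 3.03 CPM (SD, n = 3) and 5.83% of thinned cells, while cluster 6, which also carried Cdkn2a and Cdkn2b, had 211 ± 50.8 CPM (SD, n = 4) and 58.9% of thinned cells. Clusters 14 and 16 had as little Mki67 as cluster 7, at 16.4 ± 0.598 and 20.9 ± 0.305 CPM (SD, n = 2 each), but only 15.2 and 31.7 CPM of Cdkn2a. Over the 18 classes the Pearson r of log2 levels with Mki67 was -0.04 for Cdkn2a, -0.18 for Cdkn2b, -0.34 for Cdkn1a, 0.27 for Cdkn1b and 0.51 for Cdkn2c. These values describe 18 classes that share 4 libraries.

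**Figure D3:**
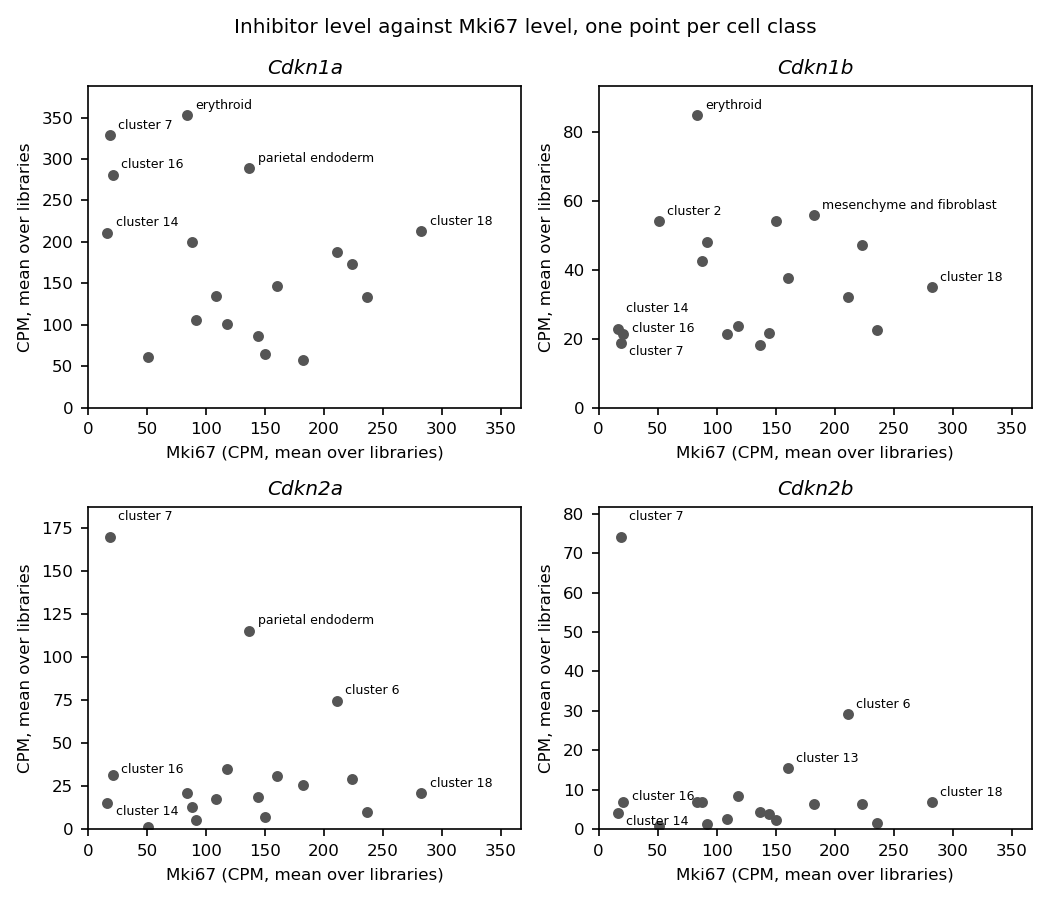
Mean CPM of Cdkn1a, Cdkn1b, Cdkn2a and Cdkn2b (vertical) against the mean CPM of Mki67 (horizontal) in 18 cell classes, 1 point per class. Cluster 7 (low Mki67) and cluster 6 (high Mki67) are both among the classes with most Cdkn2a and Cdkn2b.

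The genes most like each inhibitor over 20 clusters, by the Pearson r of log2(CPM + 1), were taken among genes with a mean of at least 10 CPM. For Cdkn2a they were Gnpnat1 (r = 0.79), Cdkn2b itself (0.79) and Eif2d (0.78). For Cdkn2b they were Cdkn2a (0.79), Plk2 (0.72) and Golm1 (0.70). The mutual likeness of Cdkn2a and Cdkn2b was thus among the highest of any gene for either. For Cdkn1a they were Nudt18 (0.83), Upp1 (0.79) and Ubxn2a (0.79), for Cdkn1b Add1 (0.81), Phc1 (0.80) and Zbtb37 (0.80), and for Cdkn1c Fam122b (0.89) and Gjb5 (0.86). Cdkn2c was below the level at which likeness was computed.

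Within classes that both groups held, the DUX-pulsed cells had more of an inhibitor in 5 of the member-by-class tests, which fell on Cdkn1a, Cdkn1b, Cdkn2a and Cdkn2b. A class was tested when every library had at least 20 of its cells, which left 5 classes. Of the members, 6 were tested in the mesenchyme and fibroblast-like class and 5 each in clusters 6 and 13. Cluster 3 had 4 tested members and the low-depth cluster 5 had 3. Of all tested genes, between 1.94% and 8.01% were called in these classes. The test was edgeR on the summed UMIs of the class, adjusted over all genes tested in it, and levels here are CPM with TMM scaling. In the mesenchyme and fibroblast-like class, 2 of 6 members were called, Cdkn1a and Cdkn1b, where 6.61% of all tested genes were called. Cdkn1a stood at 142 and 63.6 CPM in the DUX-pulsed libraries, against 15.1 and 20.1 CPM in the control libraries (log2 fold change 2.58, SE 0.37, adjusted p = 0.00234 by edgeR). The lower DUX-pulsed library was still above both controls. Cdkn1b stood at 68.8 and 81.0 CPM against 33.1 and 43.3 CPM (log2 fold change 1.0, SE 0.23, adjusted p = 0.0245 by edgeR), and this call was lost without control replicate 1 (adjusted p = 0.209). Cdkn2a was at 44.0 and 19.4 CPM against 14.7 and 25.4 CPM, with overlapping groups (log2 fold change 0.73, adjusted p = 0.312 by edgeR). Cdkn2b (adjusted p = 0.255), Cdkn2c (0.464), Cdkn1c (0.978) and Mki67 (0.706) were not called by edgeR. Single libraries decided some of these: without DUX-pulsed replicate 2 Cdkn2a (adjusted p = 0.00787) and Cdkn2b (0.0161) were called, and without control replicate 1 Cdkn1c (0.0414).

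The mesenchyme class was joined from 2 clusters, and Cdkn1a was higher in the DUX-pulsed libraries in each. In cluster 0 the plain levels were 94.7 and 37.4 CPM in the DUX-pulsed libraries, against 15.6 and 22.4 CPM in the control libraries. In cluster 10 they were 160 and 75.8 CPM against 15.6 and 21.2 CPM. Of 16 other p53 targets tested in the class, 3 were called higher and 0 lower: Plk2 (log2 fold change 1.13, adjusted p = 0.020), Ccng1, cyclin G1 (1.26, adjusted p = 0.014), and Btg2 (0.89, adjusted p = 0.032, all by edgeR), with a median over the list of 0.48 and over all genes tested in the class of -0.0037. All 3 calls were lost without control replicate 1 (adjusted p = 0.108 for Plk2, 0.125 for Ccng1 and 0.229 for Btg2), and that of Btg2 without DUX-pulsed replicate 2 (0.0602). Of 14 lists of cell type markers summed in this class, 4 were higher in both DUX-pulsed libraries than in both controls (parietal endoderm, smooth muscle, mesenchyme and fibroblast, myeloid and megakaryocyte) and 2 were lower (pluripotency, endothelium). The 13 genes of parietal endoderm, a class with much Cdkn1a, summed to 2652 and 3776 CPM in the DUX-pulsed libraries and 1854 and 2470 CPM in the control libraries, with 0 and 0 genes against 2 and 2 genes at 0. That sum was higher in DUX-pulsed replicate 2 than in replicate 1. The smooth muscle list summed to 2904 and 2895 CPM against 2077 and 1966 CPM, and the mesenchyme list to 9819 and 16418 CPM against 6541 and 7915 CPM. The part of these markers in the Cdkn1a result was not tested. When clusters were drawn at the coarser Leiden resolution of 0.5, the mesenchyme class also took in cells of the cluster 3 kind, and Cdkn1a was no longer called (log2 fold change 0.58, adjusted p = 0.407 by edgeR).

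In cluster 6 the called members were the INK4 pair, in a class where 8.01% of tested genes were called. Cdkn2b stood at 40.03 and 65.2 CPM in the DUX-pulsed libraries, against 10.4 and 6.27 CPM in the control libraries (log2 fold change 2.66, SE 0.38, adjusted p = 0.000787 by edgeR), from 270 and 255 UMIs against 10 and 7 UMIs. Cdkn2a stood at 97.3 and 122 CPM against 57.4 and 30.5 CPM (log2 fold change 1.33, SE 0.27, adjusted p = 0.00804 by edgeR). The groups did not overlap for either gene. The share of all genes without overlap in this class is not given here, and over the whole culture it was 67.6%. The Cdkn2a call was lost without control replicate 2. Mki67 was higher in the same cells, at 276 and 264 CPM against 148 and 168 CPM (log2 fold change 0.77, adjusted p = 0.0236 by edgeR), a call lost without control replicate 1 (0.169) or 2 (0.0763). Cdkn1a was not called (log2 fold change 0.45, adjusted p = 0.361; 0.0253 without control replicate 1), nor was Cdkn1c (3.20, adjusted p = 0.0569, both by edgeR). Ghrl, a leading gene of cluster 7, was at 293 and 355 plain CPM in cluster 6 of the DUX-pulsed libraries and 32.0 and 27.9 in the control libraries, and Alb, a leading gene of cluster 6, at 106 and 8.60 against 12.8 and 22.9. Cluster 6 held 171 and 91 DUX-pulsed and 26 and 28 control cells, and other clusterings drew it differently. At resolution 0.5 the class with Fgg, Itih2 and Alb among its leading genes held 33 and 8 against 11 and 12 cells. With all variable genes it held 34 and 8 against 15 and 14. There a separate class led by Ghrl, Afp and Cdkn2b held 155 and 108 against 35 and 37. The part of such a difference in makeup in the Cdkn2a and Cdkn2b results was not tested.

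The remaining call was Cdkn1a in the low-depth cluster 5, where 3.55% of tested genes were called. It stood at 351 and 226 CPM in the DUX-pulsed libraries, against 105 and 139 CPM in the control libraries (log2 fold change 1.12, SE 0.28, adjusted p = 0.0334 by edgeR), from 26 and 63 against 69 and 92 UMIs, and the call was lost without either DUX-pulsed library or control replicate 1. In cluster 3, led by Lrrn3, Lhx2, Rgs5 and Bgn, 4.97% of genes and 0 members were called. There Cdkn1b was at 63.0 and 76.6 CPM against 39.7 and 39.9 CPM (log2 fold change 0.80, adjusted p = 0.0565) and Cdkn2a at 16.3 and 7.56 against 1.12 and 4.26 CPM (2.29, adjusted p = 0.0670, both by edgeR). Without DUX-pulsed replicate 1 Cdkn1b (adjusted p = 0.01) and Cdkn1c (4.51e-05) were called there, and Cdkn2a was called without DUX-pulsed replicate 2 (8.39e-06) or control replicate 2 (0.00106). In cluster 13, led by Dppa5a, Sox2 and Foxe1, 1.94% of genes and 0 members were called, with Cdkn1b at 52.4 and 48.0 CPM against 18.7 and 29.7 CPM (log2 fold change 1.1, adjusted p = 0.0922 by edgeR, and 0.0197 without control replicate 2).

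With the minimum lowered to 10 cells in each library, chosen after the data were seen, 4 more classes could be tested. In the erythroid-like class, where 4.84% of genes were called, Cdkn1b was at 112 and 110 CPM in the DUX-pulsed libraries against 32.8 and 52.0 CPM in the control libraries (log2 fold change 1.35, adjusted p = 0.0158 by edgeR). In the cardiomyocyte-like class, where 1.66% were called, it was at 68.3 and 67.7 CPM against 16.2 and 37.7 CPM (log2 fold change 1.66, adjusted p = 0.0446 by edgeR), the control values resting on 6 and 4 UMIs. Mki67 was also higher in these classes (log2 fold changes 1.78 and 1.47, adjusted p = 0.0037 and 0.0175 by edgeR). The erythroid-like Cdkn1b call was lost without DUX-pulsed replicate 1 (adjusted p = 0.126), DUX-pulsed replicate 2 (0.0945) or control replicate 1 (0.0568). Both cardiomyocyte-like calls were lost without control replicate 1 (0.725 for Cdkn1b and 0.619 for Mki67), and the Mki67 call also without either DUX-pulsed library (0.0998 and 0.131). Cdkn1b thus had a positive log2 fold change in 9 of 9 classes, between 0.38 and 1.66, and passed the test in 3 of them. These classes come from the same libraries, so they are not independent, and they include the low-depth cluster 5. The matching count over all genes is not given here. In cluster 7, the class with most Cdkn2a and Cdkn2b, 12.4% of genes and 0 members were called. Cdkn2a was there at 171 and 170 CPM against 182 and 128 CPM (log2 fold change 0.12, adjusted p = 0.760), Cdkn2b at 56.3 and 62.5 against 108 and 43.4 CPM (-0.40, adjusted p = 0.403) and Cdkn1a at 380 and 280 against 351 and 341 CPM (-0.07, adjusted p = 0.859, all by edgeR). Control replicates gave only 24 and 18 cells of cluster 7, and without control replicate 2 Cdkn2b was called there as lower (adjusted p = 0.0124 by edgeR). In the endothelium-like class 0.962% of genes and 0 members were called.

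**Figure D4:**
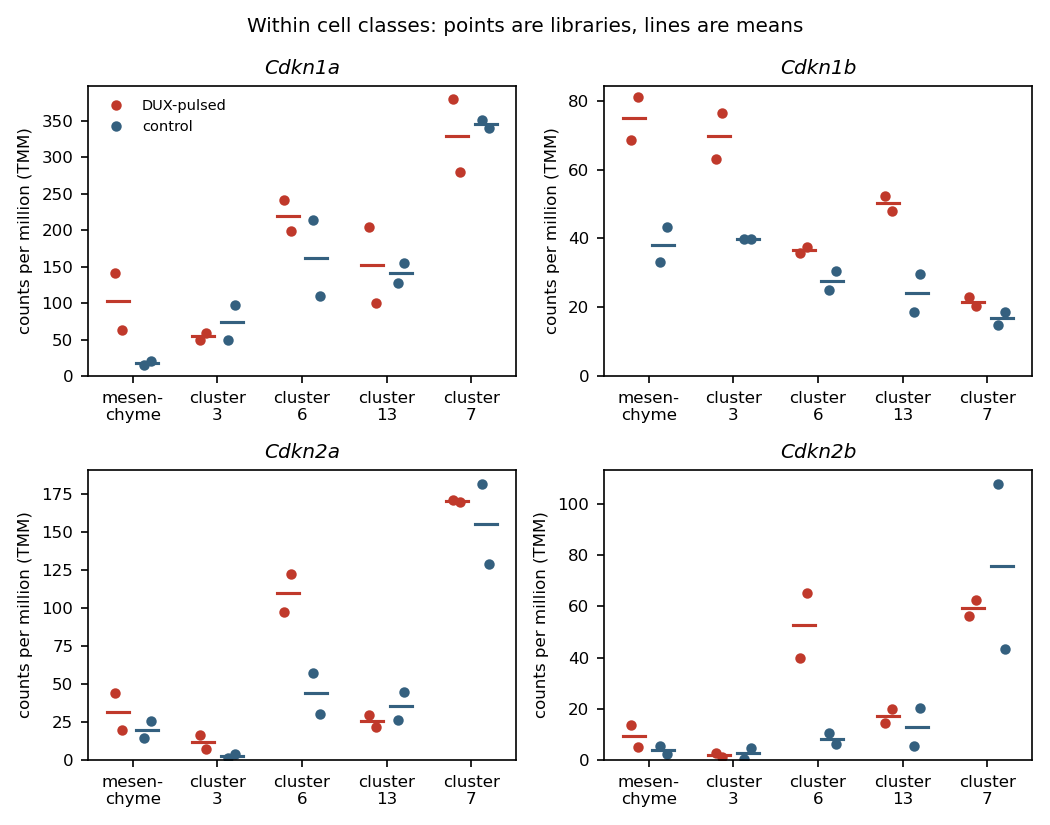
CPM with TMM scaling of Cdkn1a, Cdkn1b, Cdkn2a and Cdkn2b by library inside the mesenchyme and fibroblast-like class and clusters 3, 6, 13 and 7, with DUX-pulsed libraries left of control libraries. The groups lie apart for Cdkn1a in mesenchyme and for Cdkn2a and Cdkn2b in cluster 6, and overlap for Cdkn2a and Cdkn2b in cluster 7.

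Whether the response to DUX differed between the 5 tested classes was itself tested, with a class-by-group term in edgeR. It passed for Cdkn1a (F = 10.7, adjusted p = 0.00336), where 7.28% of 12791 genes passed. With RLE in place of TMM scaling it passed as well (adjusted p = 0.00297 by edgeR, with 7.24% of genes called). It did not pass for Cdkn2a (adjusted p = 0.0695), Cdkn2b (0.200), Cdkn1b (0.329), Cdkn1c (0.580) or Cdkn2c (0.590). With classes drawn at resolution 0.5 the Cdkn1a term was not called (adjusted p = 0.205 by edgeR) and those of Cdkn1b (0.0483), Cdkn2a (0.000109) and Cdkn2b (0.00438) were, where 21.4% of genes were called.

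To take out the shift in class sizes among the 5 tested classes, their levels in each library were also averaged with the same weights in every library. The low-depth cluster 5 was included and held the most cells of these classes (1031). The classes highest in Cdkn2a, Cdkn2b and Cdkn1c were not among them, and neither was the parietal endoderm-like class. The averages therefore describe the tested classes and not the whole culture. The weighted level of Cdkn2b was 9.35 and 19.2 CPM in the DUX-pulsed libraries against 3.18 and 4.85 CPM in the control libraries, a log2 ratio of 1.83, and that of Cdkn2a 42.5 and 43.7 against 20.2 and 27.2 CPM, a log2 ratio of 0.86. For Cdkn1a it was 189 and 132 against 92.1 and 111 CPM (log2 ratio 0.66), and for Cdkn1b 39.8 and 56.2 against 31.2 and 38.3 CPM (log2 ratio 0.47). For Cdkn1c the log2 ratio was 0.54 and for Cdkn2c 0.68, with overlapping groups. These values carry no test, and which groups overlapped changed with the weights: Cdkn1c did not overlap when the classes had equal weights, and Cdkn2b overlapped with 9 classes of at least 10 cells, where its log2 ratio was 0.29.

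The inhibitors were last compared between cells with and without a Mki67 UMI, inside each library. Cells were thinned to 5000 UMIs, which left out 7.76% and 21.8% of the DUX-pulsed cells and 14.1% and 17.9% of the control cells as too shallow. A Mki67 UMI was found in 33.1% and 25.1% of thinned DUX-pulsed cells and 27.1% and 27.4% of thinned control cells, against 47.9% and 33.6%, and 45.0% and 39.3%, without thinning. The split was tested in edgeR with the library as a block, and 17.3% of 12947 genes were called, 8.22% as higher and 9.08% as lower in Mki67-detected cells. Of the members, Cdkn1a was lower and Cdkn1b higher in Mki67-detected cells, both by small amounts. Among 20 S phase genes 18 were called higher and 1 lower, and the G2 and M genes other than Mki67, which defined the split, were all called higher.

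Cdkn1a stood at 186 and 114 CPM in detected cells of the DUX-pulsed libraries and at 156 and 153 CPM in those of the control libraries, against 214, 157, 177 and 166 CPM in undetected cells of the same libraries. It was lower in detected cells of 4 of 4 libraries (log2 fold change -0.22, SE 0.06, adjusted p = 0.0150 by edgeR). Cdkn1b stood at 55.5 and 85.4 CPM in detected cells of the DUX-pulsed libraries and at 30.5 and 28.1 CPM in those of the control libraries, against 52.4, 54.4, 22.4 and 24.6 CPM in undetected cells (log2 fold change 0.32, SE 0.10, adjusted p = 0.0319 by edgeR). It was higher in detected cells of 4 of 4 libraries. The Cdkn1a call was lost without DUX-pulsed replicate 1 (adjusted p = 0.0647) or 2 (0.0758), and the Cdkn1b call without DUX-pulsed replicate 2 (0.193), control replicate 1 (0.103) or control replicate 2 (0.0619). Cdkn2d, too, was higher in detected cells (log2 fold change 0.48, SE 0.10, adjusted p = 0.00145 by edgeR). Cdkn2a stood at 53.5 and 53.9 CPM in detected cells of the DUX-pulsed libraries and 20.2 and 9.80 CPM in those of the control libraries, against 64.4, 46.9, 25.4 and 18.6 CPM in undetected cells. The second DUX-pulsed library went the other way from the rest, and the gene was not called (log2 fold change -0.27, SE 0.12, adjusted p = 0.137 by edgeR; 0.024 without that library). Cdkn2b (log2 fold change -0.17, adjusted p = 0.609) and Cdkn1c (-0.37, adjusted p = 0.215, both by edgeR) were not called, although Cdkn1c was at 10000 UMIs per cell (-0.64, adjusted p = 0.0363). Cdkn2c had 10, 6, 2 and 2 UMIs in detected cells and 4, 2, 2 and 5 in undetected cells of the DUX-pulsed and then the control libraries, too few to test at this depth. Without thinning its log2 fold change was 3.27 (adjusted p = 0.00039 by edgeR). In that setting shallow cells are kept and detection of Mki67 also depends on depth, so the value does not separate cycling from depth. The difference of the split between DUX-pulsed and control libraries was called for 0.772% of genes and for 0 members by edgeR, the smallest unadjusted p being 0.053 for Cdkn2a.

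The whole-library split mixes classes, and inside classes the picture was not the same for Cdkn1a. Over 24 pairs of a class and a library, Cdkn1a was lower in detected cells in 8, with a median log2 ratio of 0.10, so in most pairs it was not lower in detected cells. Cdkn1b was lower in 7 of 23 pairs (median 0.39) and Cdkn2a in 11 of 17 (median -0.37). In cluster 6 Cdkn2a was higher in detected cells of both DUX-pulsed libraries, at 102 and 144 CPM against 55.7 and 86.5 CPM in undetected cells. In the parietal endoderm-like class of DUX-pulsed replicate 1 it was lower, at 106 against 147 CPM. Such pairs share libraries and carry no test.

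**Figure D5:**
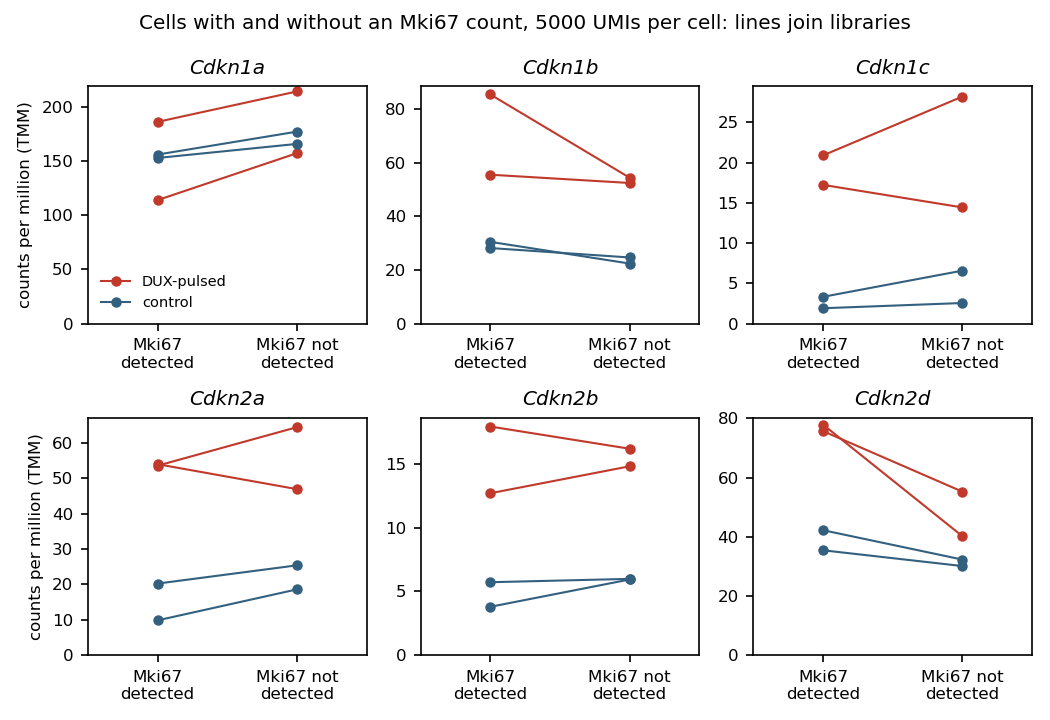
CPM with TMM scaling of Cdkn1a, Cdkn1b, Cdkn1c, Cdkn2a, Cdkn2b and Cdkn2d in Mki67-detected (left) and Mki67-undetected (right) cells after thinning to 5000 UMIs, with a line joining the values of each library. All 4 lines rise to the right for Cdkn1a and fall to the right for Cdkn1b and Cdkn2d, while 1 DUX-pulsed library runs against the other 3 for Cdkn2a.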

How the data were processed

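Single-cell RNA was captured with 10x Genomics droplets and sequenced on a NovaSeq instrument, per the labels' protocols. The authors deposited 1 table of whole-number UMI counts, with no normalization and no cell annotation. Cell Ranger 2.2.0, STAR and the mm10 build are named in the submitters' processing notes, and the cell filter applied before deposit is not given in the sources used here. A cell's library was read from its column name. Of 10090 cells, 8876 passed a filter of 500 or more genes and no more than 10% mitochondrial counts.

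Clusters came from scanpy 1.11.5: 2000 variable genes were chosen, 1982 were used after members, Mki67 and phase genes were left out, and 30 principal components, 15 neighbours and Leiden resolution 1 followed. A cluster whose top 10 genes held as many markers of a second type stayed unnamed, a rule made strict after the data were seen. Scrublet called 27 doublets in 8876 cells, too few for the caller to have worked, and no cell was removed. UMI counts were summed per library or per class and library and tested with edgeR 4.0.16 in R 4.3.3 (quasi-likelihood, TMM scaling, genes reaching 10 counts in 2 or more libraries and 40 in all, Benjamini-Hochberg over all genes). SE is the log2 fold change divided by the square root of F. CPM values were computed here. For comparisons of the groups, the p-values measure the spread between 2 libraries per group. Those of the Mki67 split measure the spread of differences inside libraries. Those of the class-by-group term measure the spread of class sums after library and class terms. For the Mki67 split each cell was thinned to 5000 UMIs. Depth and detection values cover counting error only.

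The genes named are the members, Mki67, Cdkn2d, from each pathway list the 2 genes with the smallest whole-culture p, for each member with a mean of at least 5 CPM the 3 most similar genes, leading genes of clusters, and the called p53 targets of the mesenchyme class, these last chosen after their values were seen. Of the genes this rule names, 2 are not reported here. The members and lists were chosen with earlier results of these data known. Alternatives used DESeq2 1.42.0, other filters, clusterings, depths and a replicate block, and left out each library. The fits were also run on simulated counts with known 2-fold changes, drawn with the spread estimated by the fits. Such counts check the computation and cannot show how the tests behave with 2 real libraries per group.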

Additional observations from a re-analysis of the deposited data

Results flagged for a closer look

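The effect of the DUX pulse on Cdkn1a differed between the 5 tested classes by the class-by-group term of edgeR (adjusted p = 0.00336). The gene was higher in DUX-pulsed cells of the mesenchyme and fibroblast-like class and of cluster 5, and was not called in clusters 3, 6 and 13.

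Cells left out for more than 10% mitochondrial counts entered only the alternative with all deposited cells. Summed on their own, they had 4 of the 6 inhibitors higher in both DUX-pulsed libraries than in both control libraries, as were 27% of the 12388 genes with enough counts in these cells. Cdkn1b stood at 46.4 and 42.3 CPM in the DUX-pulsed libraries and 21.4 and 21.3 CPM in the control libraries, Cdkn1c at 10.5 and 16.2 against 5.32 and 2.49 CPM, Cdkn2a at 73.4 and 34.9 against 25 and 26.4 CPM, and Cdkn2b at 7.59 and 6.98 against 4.21 and 6.43 CPM. The groups overlapped for Cdkn1a, at 210 and 121 against 202 and 153 CPM, and for Cdkn2c, at 0.422 and 1.47 against 0.702 and 0.415 CPM. These differences were not tested.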

How the results depend on the processing

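Over the whole culture 4306 genes were called, against 4803 with DESeq2, 7184 with the replicate block, 2042 under the stricter filter (1000 or more genes, no more than 5% mitochondrial reads), and 2134 to 4972 when 1 library was left out. The block paired libraries by replicate number, which the main fits did not. Whether same-numbered libraries were prepared together is not given in the sources used here (correlation of same-numbered deviations 0.469 over 16140 genes, 2 pairs). Under this pairing, Cdkn1a had a log2 fold change of 0.20 and no whole-culture member changed its call. Cdkn1c, Cdkn2a and Cdkn2b passed in 16 of 16 alternatives (lowest log2 fold changes 1.92, 1.20 and 1.27), Cdkn1b in 15 of 16, Cdkn2c in 13 of 15 and Cdkn1a in 0 of 16 (adjusted p = 0.111 to 0.939 by edgeR or DESeq2). With 1 library left out the log2 fold change of Cdkn1a ran from -0.070 to 0.49, of Cdkn1b from 0.80 to 1.07 and of Cdkn2c from 1.69 to 2.31. In the stricter cells that of Cdkn2c was 1.84. For the Mki67 split 2239 genes were called, against 5582 without thinning and 1452 to 1991 with 1 library left out. The members called were 2, against 4 without thinning, 4 at 10000 UMIs per cell and 1 with any library left out. At 10000 UMIs the log2 fold change of Cdkn2b was 0.052. Within classes there were 5 calls, against 12 with the replicate block, 3 when all variable genes were used and 5 to 7 with 1 library left out. Without a low-count filter the mesenchyme calls of Cdkn1a (adjusted p = 0.0993) and Cdkn1b (0.127) were lost, and with all variable genes that of Cdkn1b (0.0567). The class-by-group term passed for 1 member, against 3 at resolution 0.5 and 2 with classes of at least 10 cells. The weighted log2 ratio of Cdkn1a was 0.27 at resolution 0.5 and 0.32 with at least 10 cells, that of Cdkn2a 0.45 with at least 10 cells, and that of Cdkn2b 0.89 and 0.29. Leaving out clusters 4, 5, 7 or 9 and the minimum of 10 cells were chosen after the data were seen. The cause of these shifts was not tested. Cdkn2c could not be tested in thinned cells, and its 312 UMIs limit its precision.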
